A study of Oryza sativa Indica Group with 27 samples.

Results

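The genes described here were expressed in the rice cultivar Vandana and were at or near 0 in every mRNA library of Nipponbare rice. They were chosen by their mRNA levels in these same libraries, given in FPKM (fragments mapped to a gene, scaled to its length in kilobases and to the size of the library): a gene had at least 5 FPKM in both Vandana libraries labelled 0 and 1 h after treatment (HAT), and less than 0.1 FPKM in all 6 libraries with a Nipponbare background. The rule found 54 of the 37869 genes listed by their Rice Annotation Project identifiers. They made up 0.405% of the 13341 genes that reached 5 FPKM in both Vandana libraries. The difference between the plants is what the rule selected, so it is given as a description and was not tested.

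The study removed the culture solution from rice plants at the three-leaf stage and froze whole plants before treatment and at 1 and 6 HAT. The groups used here were wild-type Nipponbare (WT), a japonica cultivar although the organism label of every sample reads Indica Group, a Nipponbare AP2 transgenic that is called erf71 in the paper and overexpresses OsERF71, and wild-type Vandana, which the labels call a drought-tolerant Indica variety. Each plant had 1 mRNA library at each time point, so no value has a replicate and no p-value was computed. The promoter that drives OsERF71, the number of transgenic lines, and the number of plants in a library are not given in the sources used here.

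Japonica and indica rice are long-separated groups whose genomes differ by insertions, deletions, and many small changes, and a gene can be active in some cultivars and silent or missing in others. The reads of all 3 plants were mapped to the same genome, IRGSP1.0, which is the genome of Nipponbare. A gene that Nipponbare lacks therefore has no row in the table, and every member is a gene annotated in the Nipponbare reference that had almost no signal in the Nipponbare plants of this study. The files, the paper, and the reference table used here give no name, function, or sequence to any member, so the members are called by their identifiers and no role is stated.

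The sum of FPKM over all genes lay between 702034 and 857472 in the 9 libraries. Read numbers were not recovered from the FPKM values, so the depth behind a value is unknown here. A listed 0 can be a failed estimate. Among genes with at least 5 FPKM in the other 8 libraries (6380 to 9678 genes, depending on the library), few were listed at 0. They were no more than 2 in any WT or erf71 library, no more than 5 in the Vandana libraries labelled 0 and 1 HAT, and 30 in Vandana at 6 HAT. This count cannot include a member or any gene at 0 in several libraries. It therefore does not show whether the zeros of such genes are failed estimates. The Vandana library at 6 HAT stood apart, with a median of 0.343 FPKM over all genes and 12398 genes listed at 0, compared with 1.79 FPKM and 9411 genes in the Vandana library labelled 0 HAT. Leaf and root marker genes (3 Rubisco small subunits, Lsi1, and RCc3) had between 6.57 and 15916 FPKM in all libraries, and 2 seed marker genes (GluA1 and Wx) had at most 0.468 FPKM. At 0, 1, and 6 HAT the level of OsERF71 (Os06g0194000) was 133, 122, and 187 FPKM in WT plants, and that in erf71 was 201, 172, and 264 FPKM, higher at each time point.

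The early Vandana labels went against the dehydration genes that the paper names. Dip1 (Os02g0669100), which the paper uses as a marker of water deficit, had 383 FPKM in the Vandana library labelled 0 HAT, 101 FPKM in that labelled 1 HAT, and 2275 FPKM at 6 HAT, whereas the WT levels at 0, 1, and 6 HAT were 92.6, 329, and 2583 FPKM. OsbHLH148 (Os03g0741100), a transcription factor, had 291 FPKM in the Vandana library labelled 0 HAT and 8.72 FPKM in that labelled 1 HAT, and in WT it had 7.95 FPKM at 0 HAT and 443 FPKM at 1 HAT. The order of these Vandana libraries was thus the opposite of that in WT. They are called the libraries labelled 0 and 1 HAT throughout, no direction is drawn between them, and changes to 6 HAT are given from their mean.

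In WT and erf71, 44 of the 54 members were listed at 0 in all 6 libraries. Of the 324 values of the members in these libraries, 26 were above 0, and 3 of the 10 members with a value above 0 stayed below 0.001 FPKM. The other 7 reached at least 0.001 FPKM in some library, and Os11g0128932 had the highest value, 0.0994 FPKM in WT at 0 HAT. This gene had 0.0976 FPKM in WT at 1 HAT, 0.0454 and 0.0498 FPKM in erf71 at 0 and 1 HAT, and was listed at 0 in both plants at 6 HAT. Os08g0240200 was above 0 in every library, and its WT levels at 0, 1, and 6 HAT were 0.0534, 0.0874, and 0.0226 FPKM, beside 0.0261, 0.0283, and 0.0988 FPKM for erf71.

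**Figure D1:**
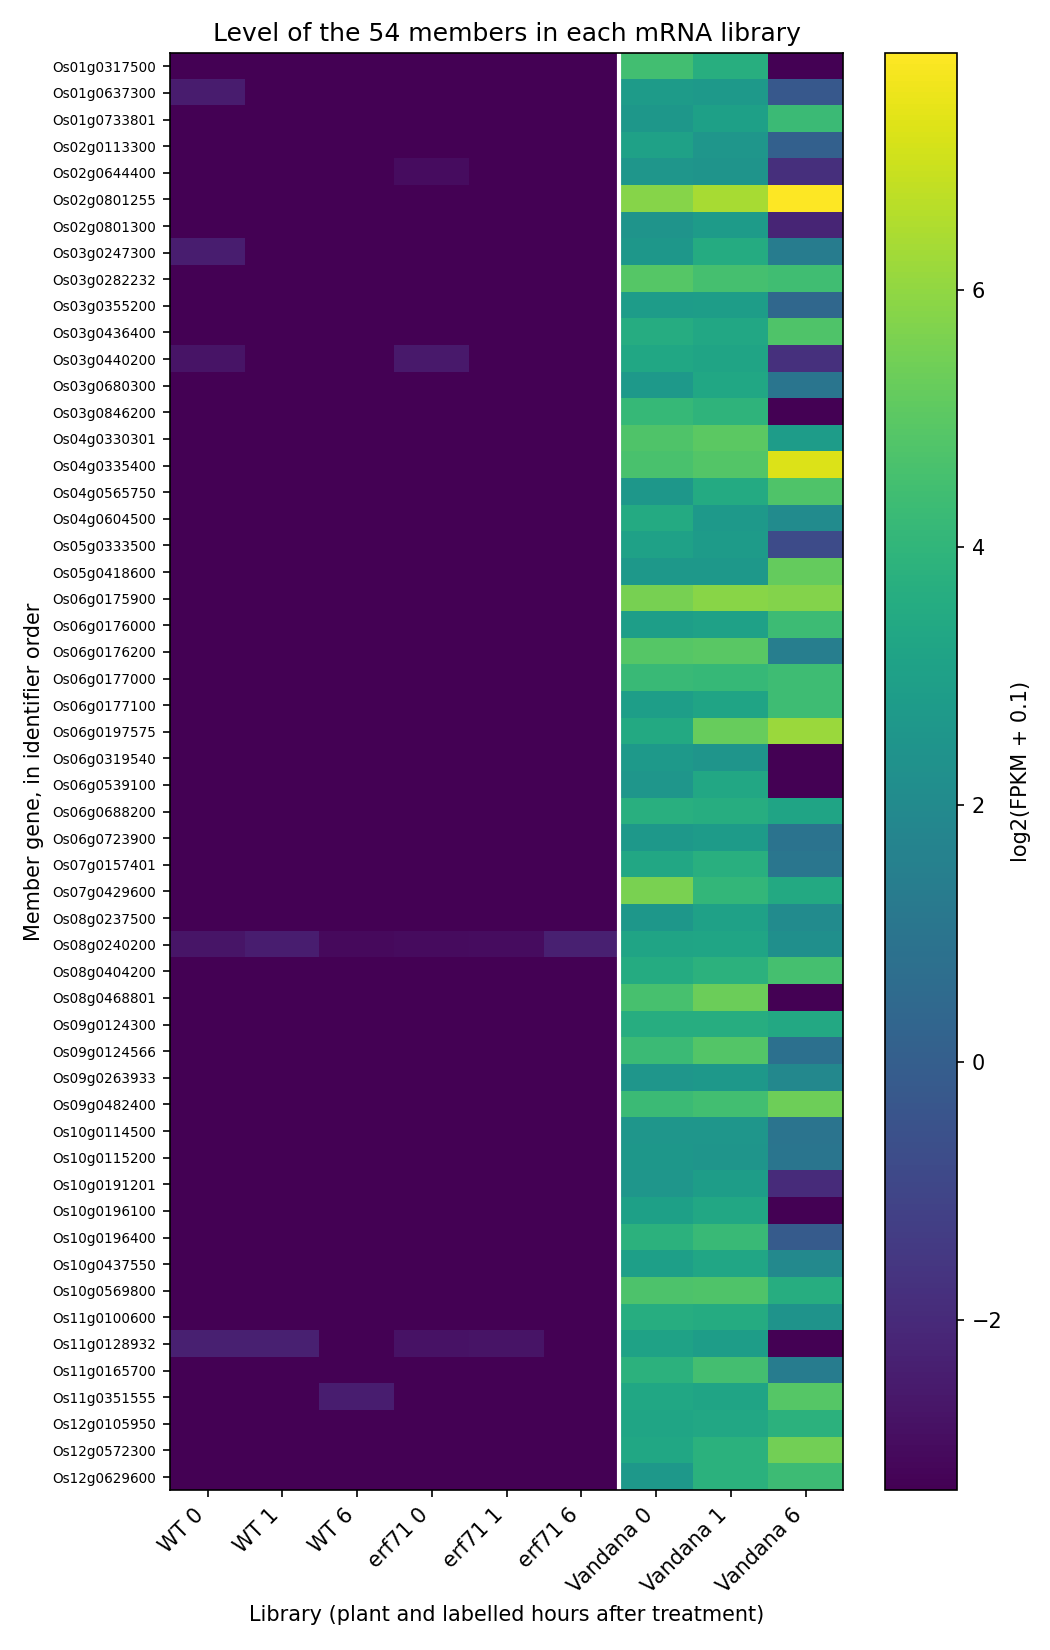
Level of each of the 54 members (rows, in identifier order) in the 9 mRNA libraries (columns), as log2(FPKM + 0.1). The 6 columns of WT and erf71 are dark for nearly all members, with a highest value of 0.0994 FPKM, and the Vandana columns differ between members, most of all at 6 h.

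In Vandana, the members were of low to moderate abundance. Their levels ran from 5.41 to 55.4 FPKM in the library labelled 0 HAT, with a median of 9.68 FPKM, and from 5.41 to 83.6 FPKM in that labelled 1 HAT, with a median of 10.3 FPKM. The median of the mean of both libraries was 9.50 FPKM, below the 19.7 FPKM of the 13287 other genes that had at least 5 FPKM in both. A mean of at least 10 FPKM was found for 25 members, of at least 20 FPKM for 12, and of at least 50 FPKM for 2. All members together held 0.0914% of the summed FPKM in the library labelled 0 HAT and 0.113% at 6 HAT.

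The 12 most abundant members held 49.8% of the members' summed mean level. Os02g0801255 was the most abundant, with 55.4 and 83.6 FPKM in the Vandana libraries labelled 0 and 1 HAT and 228 FPKM at 6 HAT, and it was listed at 0 in all 6 libraries of WT and erf71. Os06g0175900 followed with 47.3 and 57.4 FPKM and with 54.6 FPKM at 6 HAT. Its level therefore differed little between the 3 Vandana libraries, while that of Os02g0801255 was highest at 6 HAT.

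Os07g0429600 had 48.7 and 16.8 FPKM in the libraries labelled 0 and 1 HAT and 10.8 FPKM at 6 HAT. Os08g0468801 had 23.9 and 40.6 FPKM in the same order and almost nothing at 6 HAT (2.3e-05 FPKM). Os06g0176200 had 30.0 and 31.5 FPKM and then 2.65 FPKM. These 3 members all had their lowest Vandana level at 6 HAT. The rest of the 12 were Os04g0330301, Os04g0335400, Os03g0282232, Os10g0569800, Os06g0197575, Os09g0124566, and Os09g0482400, with means between 20.7 and 30.0 FPKM.

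Between the libraries labelled 0 and 1 HAT, 3 of the 54 members differed at least 2-fold, and 5.70% of the other genes at 5 FPKM or more did. Os06g0197575 had 10.7 FPKM in the library labelled 0 HAT and 38.2 FPKM in that labelled 1 HAT, the widest gap among the members. Os12g0629600 had 6.09 and 14.1 FPKM, and Os07g0429600 was the only one of the 3 to be lower in the library labelled 1 HAT. Of all members, 36 (66.7%) were higher in the library labelled 1 HAT and 18 lower, and of the other genes 55.5% were higher and 44.5% lower. The members had a median log2 ratio of 0.13, compared with 0.04 over the other genes.

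The library of Vandana at 6 HAT was not used by the rule. At 6 HAT the members ranged from 0 to 228 FPKM with a median of 3.91 FPKM, and 24 of them (44.4%) still had at least 5 FPKM, compared with 55.0% of the other genes that had at least 5 FPKM in both earlier libraries. From the mean of the earlier libraries to 6 HAT, 31 members were at least 2-fold lower (57.4%), 12 were at least 2-fold higher (22.2%), and 11 lay within 2-fold, on the log2(FPKM + 0.1) scale. Among the other genes, 64.0% were at least 2-fold lower and 9.81% at least 2-fold higher. The median log2 change was -1.37 over the members and -1.74 over the other genes. The middle 50% of the members lay between -3.64 and 0.76, a wider interval than the -3.13 to -0.32 of the other genes. When the Vandana libraries were scaled to each other by a median ratio (taken over genes that exceeded 1 FPKM in each of the 3), which moved the median of the other genes to -0.74, 22 members were at least 2-fold lower and 17 at least 2-fold higher, beside 44.9% and 20.6% of the other genes. No error between libraries is known, and the 54 genes are not replicates, so neither difference from the other genes was tested.

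**Figure D2:**
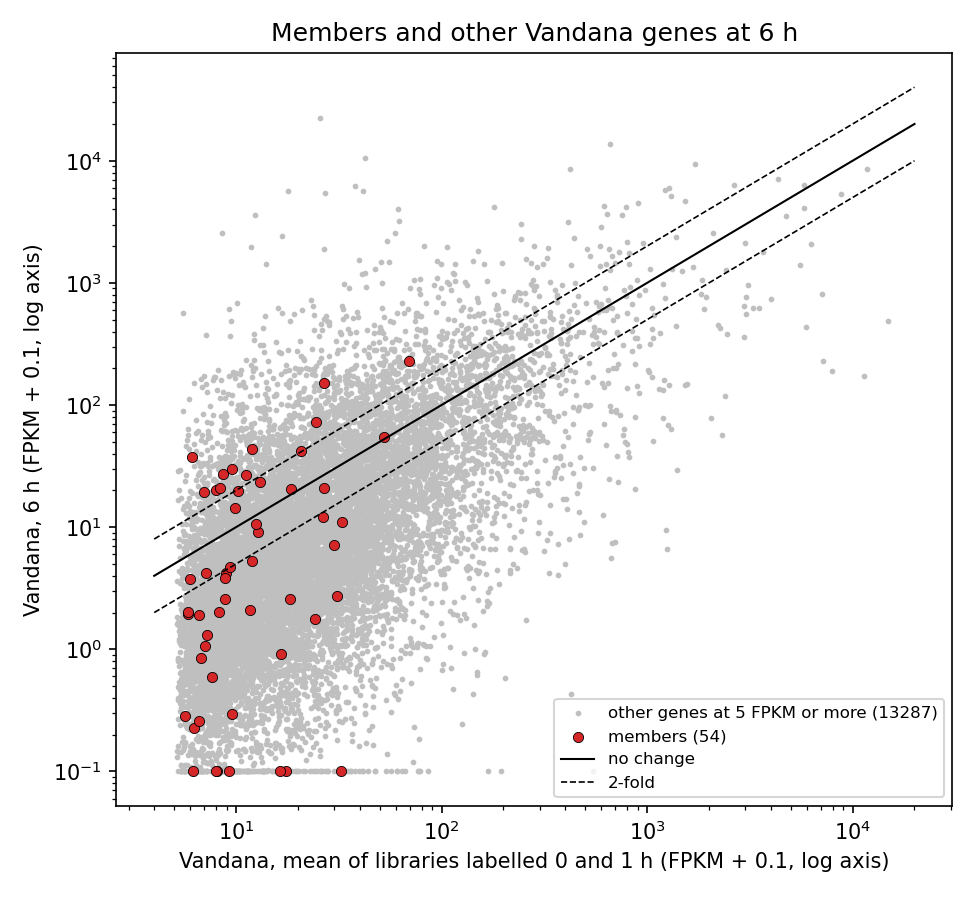
Level in Vandana at 6 h (vertical) against the mean of the Vandana libraries labelled 0 and 1 h (horizontal), both as FPKM + 0.1 on log axes, for the 54 members (red) and the 13287 other genes with at least 5 FPKM in both earlier libraries (grey). Solid and dashed lines mark no change and a 2-fold change, and 12 members lie above the upper dashed line and 31 below the lower one.

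The 12 members that were higher at 6 HAT had between 19.2 and 228 FPKM there, with a median of 33.5 FPKM. Os05g0418600 showed the largest log2 change, 2.61, with 6.01 and 6.02 FPKM in the libraries labelled 0 and 1 HAT and 37.1 FPKM at 6 HAT. Os04g0335400 had 24.4 and 29.1 FPKM and then 150.1 FPKM, a log2 change of 2.48. Both were more than 4-fold higher at 6 HAT, and no other member was.

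Os12g0572300 followed, with 10.003 and 13.7 FPKM in the earlier libraries and 44.0 FPKM at 6 HAT, a log2 change of 1.88. The log2 change of Os02g0801255, the most abundant member, was 1.71. Os04g0565750 had 5.84 and 11.2 FPKM and then 27.0 FPKM, a log2 change of 1.66. In each of these 5 members the level at 6 HAT was above both earlier values.

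At 6 HAT, 6 of the 54 members were listed at 0, all of them among the 31 that were lower, and Os08g0468801 was below 0.001 FPKM. Of all the other genes, 1.18% were listed at 0 at 6 HAT, but their earlier means had a higher median (19.7 FPKM, compared with 9.50 FPKM for the members). Os01g0317500 had 22.2 and 12.7 FPKM in the libraries labelled 0 and 1 HAT before it was listed at 0, Os03g0846200 had 17.6 and 15.1 FPKM, and Os10g0196100 had 7.94 and 10.4 FPKM. Os06g0539100 had 5.69 and 10.3 FPKM, and Os11g0128932 and Os06g0319540 completed the 6. No fold change is given for these genes because a listed 0 has no known lower limit in this table.

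A further 9 members had values above 0 and below 1 FPKM at 6 HAT, Os08g0468801 among them. Os02g0801300 had 5.41 and 6.86 FPKM in the earlier libraries and 0.125 FPKM at 6 HAT. The difference was smaller in Os10g0569800, which had 26.3 and 26.7 FPKM and then 12.1 FPKM. This was the highest level at 6 HAT among the 31 members that were at least 2-fold lower. In whole plants, fewer cells of a type and less RNA per cell cannot be told apart.

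The 11 members within 2-fold had between 3.64 and 54.6 FPKM at 6 HAT. Os06g0175900 and Os06g0177000 lay closest to their earlier means, with log2 changes of 0.06 and 0.16. Os03g0282232 had 30.1 and 23.1 FPKM in the libraries labelled 0 and 1 HAT and 21.0 FPKM at 6 HAT. Os09g0124300 had 12.3 and 12.4 FPKM and then 10.5 FPKM.

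When the 6 HAT library alone was used in place of the earlier ones, 65 genes had at least 5 FPKM in Vandana and less than 0.1 FPKM in all 6 libraries of WT and erf71. Of these, 24 were members, which is 36.9% of the 65 and 44.4% of the members. Of the 41 that were not members, 22 had less than 1 FPKM in both earlier Vandana libraries. This alternative was chosen after the data were seen.

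The members were found on all 12 chromosomes, which the identifiers name. Chromosome 6 had 10 members, or 0.962% of its genes with at least 5 FPKM in both Vandana libraries, and chromosome 10 had 7 members, or 1.07%. On chromosome 3 the 7 members were 0.355% of such genes, and on chromosome 1 the 3 members were 0.153%. Of the 10 members on chromosome 6, 5 lay close together in a stretch described next, and the other 5 lay elsewhere.

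Identifiers of the Rice Annotation Project follow the order of the genes along each chromosome, and the rule did not use them. In this order, 10 of the 54 members stood directly beside another member, as 5 pairs. The longest run of consecutive genes listed at 0 in all 6 libraries of WT and erf71 began on chromosome 6 at Os06g0175900 and ended at Os06g0178650. It held 29 genes and 5 of the members, and all 174 values of WT and erf71 in it were 0. The table held 3297 such runs, 2500 of them of 1 gene, and the next longest had 19 genes. The run remained at 29 genes when only the WT libraries were used, when only the erf71 libraries were used, and when any level below 0.1 FPKM counted as silent.

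In Vandana, 24 of these 29 genes had a value above 0 in at least 1 library, 20 reached 0.1 FPKM, and 10 reached 1 FPKM. The 5 remaining genes were listed at 0 in all 9 libraries. Elsewhere in the table, 193 of the 4557 genes listed at 0 in WT and erf71 reached 1 FPKM in Vandana, which is 4.24%, compared with 34.5% in the stretch. The stretch was singled out after its values were seen, and this difference was not tested. The run of 19 genes, which began at Os09g0404300 on chromosome 9, had no gene that reached 0.1 FPKM in Vandana.

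**Figure D3:**
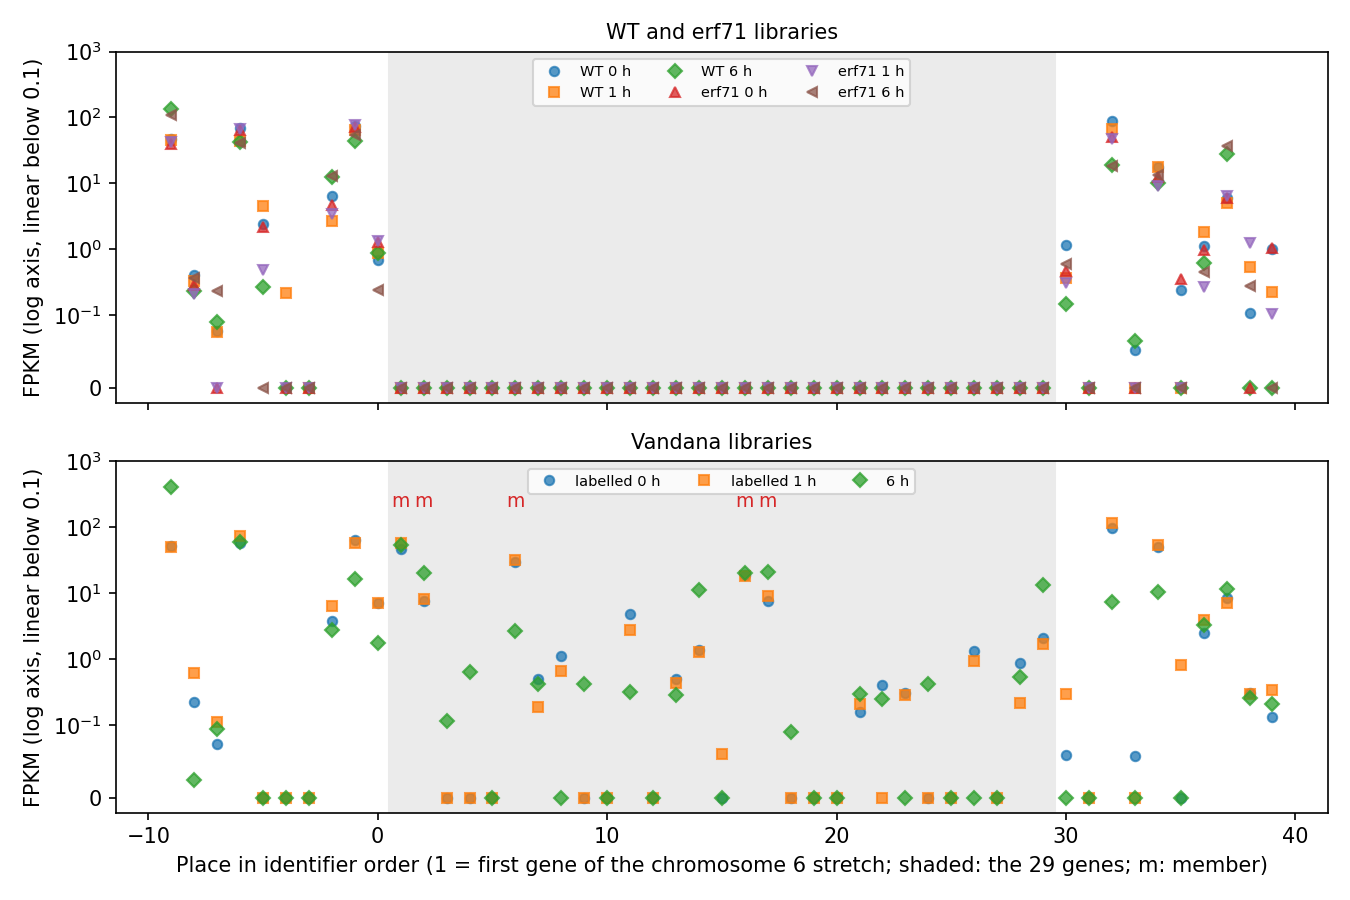
FPKM (log axis, linear below 0.1) of consecutive genes on chromosome 6 by their place in identifier order, for the 6 libraries of WT and erf71 (upper panel) and the 3 of Vandana (lower panel). All 29 genes of the shaded stretch are at 0 in WT and erf71, 10 of them reach 1 FPKM in Vandana, and the letter m marks the 5 members.

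Genes on either side of the stretch were expressed in WT and erf71. Shortly before it, Os06g0175500 had between 44.5 and 77.5 FPKM in these 6 libraries, and 64.4 and 57.6 FPKM in the Vandana libraries labelled 0 and 1 HAT. Os06g0175800, the last gene before the stretch, had 0.239 to 1.30 FPKM in WT and erf71 and 7.10, 7.03, and 1.72 FPKM in Vandana. Behind the stretch, Os06g0178900 had 18.0 to 88.9 FPKM in WT and erf71 and 95.9, 115, and 7.33 FPKM in Vandana. Of the 20 genes that flank the stretch, 10 on each side, 1 was listed at 0 in all 6 libraries of WT and erf71 and 13 reached 1 FPKM in at least 1 of them. In Vandana, 9 of these 20 genes reached 1 FPKM in at least 1 library.

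The 5 members of the stretch were Os06g0175900, Os06g0176000, Os06g0176200, Os06g0177000, and Os06g0177100. Os06g0176000 had 7.49, 8.25, and 20.2 FPKM in the Vandana libraries labelled 0 and 1 HAT and at 6 HAT, and Os06g0177100, 15 places further on, had 7.49, 9.05, and 20.9 FPKM. Their values differed by at most 1.10-fold in any library. Os06g0177000, which stands directly before Os06g0177100, had 18.9, 18.0, and 20.5 FPKM, and Os06g0175900, directly before Os06g0176000, had 2.50, 3.19, and 2.66 times these levels. Os06g0176200 was the only member of the stretch to be at least 2-fold lower at 6 HAT.

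Other genes of the stretch were expressed below the threshold of the rule. Os06g0176700 had 4.88, 2.71, and 0.315 FPKM in the Vandana libraries labelled 0 and 1 HAT and at 6 HAT, just under the limit in the first of them. Os06g0176850 had 1.38, 1.27, and 11.3 FPKM, and Os06g0178650 had 2.11, 1.69, and 13.4 FPKM. These latter genes resembled each other in level and were both highest at 6 HAT, and Os06g0176600 and Os06g0178400 had the same value, 0.414 FPKM at 6 HAT, and were listed at 0 in the earlier libraries. Whether such genes are near-identical copies that share reads was not tested, since no sequence of them was used here, and their separate levels are uncertain.

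**Figure D4:**
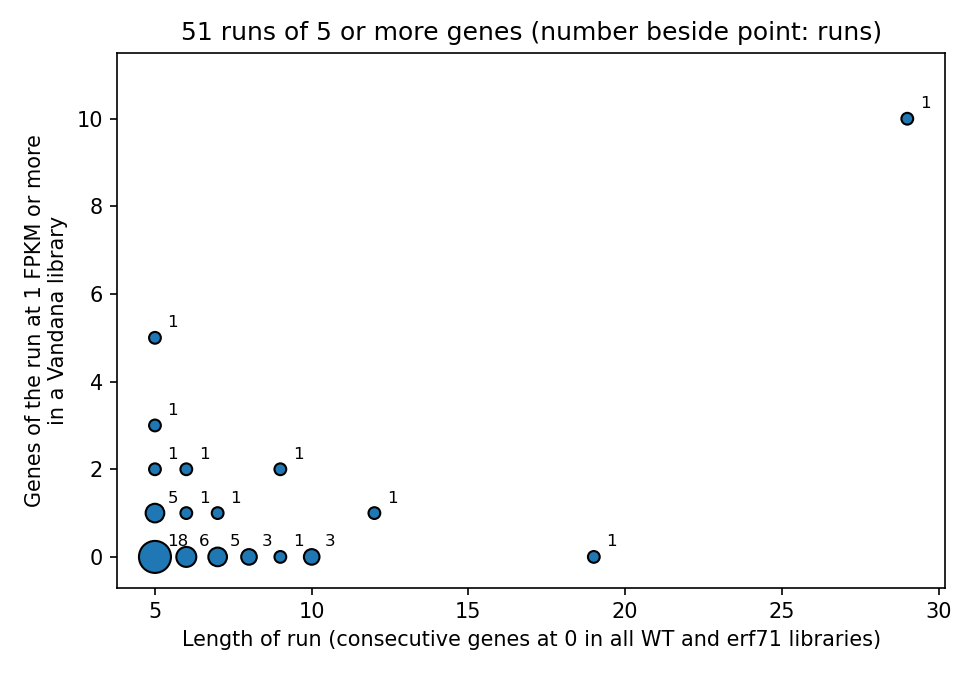
Runs of 5 or more consecutive genes that were listed at 0 in all 6 libraries of WT and erf71: length of the run in genes (horizontal) against the number of its genes that reached 1 FPKM in a Vandana library (vertical), with the number of runs beside each point. The stretch on chromosome 6 stands at 29 and 10, and no other of the 51 runs has more than 5 such genes.

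Outside the stretch, members also stood beside silent genes. At least 1 direct neighbour was listed at 0 in all 6 libraries of WT and erf71 for 31 of the 54 members (57.4%), for 16.0% of the other genes with at least 5 FPKM in both Vandana libraries, and for 21.7% of all genes in the table. Without the 5 members of the stretch, it was 26 of 49 members (53.1%). With neighbours that are members left out, it was 26 of 54 (48.1%). Both neighbours were listed at 0 for 13 members (24.1%), for 0.888% of these other genes, and for 2.48% of all genes in the table. The rule chose members for silence in WT and erf71, whereas each of these other genes reached 0.1 FPKM in some of those libraries. A nearer comparison is with silent genes. Of the 44 members listed at 0 in all 6 libraries, 27 had a neighbour so listed, the 5 members of the stretch among them. Of all 4586 genes so listed, 2500 had no such neighbour and the rest had at least 1. No difference was tested.

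The neighbours were not always silent in Vandana. Os09g0482400 had 19.4, 22.0, and 41.7 FPKM in the Vandana libraries labelled 0 and 1 HAT and at 6 HAT, and stood in a run of 5 genes at 0 in WT and erf71, all of which reached 1 FPKM in Vandana. In that run, Os09g0482200 had 4.40, 4.63, and 5.51 FPKM and Os09g0482500 had 2.95, 2.15, and 3.58 FPKM. Os03g0436400 had 11.97, 10.3, and 26.8 FPKM, and stood in a run of 4 genes of which 3 reached 1 FPKM. By contrast, Os04g0335400 stood in a run of 12 genes of which the other 11 were listed at 0 in all 9 libraries.

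The 5 adjacent pairs included those at the start and in the middle of the stretch. On chromosome 2, Os02g0801255 stood beside Os02g0801300, and their changes to 6 HAT were opposite. Os02g0801200, near to both, had 0.0416 to 0.924 FPKM in WT and erf71 and 12.5, 12.8, and 0.677 FPKM in Vandana. On chromosome 9, Os09g0124300 stood beside Os09g0124566, which had 19.2, 29.2, and 1.66 FPKM, so that at 6 HAT only the second of them was at least 2-fold lower. On chromosome 10, Os10g0196100 stood beside Os10g0196400, which had 14.2, 18.7, and 0.808 FPKM, and both were lowest at 6 HAT.

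Also on chromosome 10, Os10g0114500 and Os10g0115200 lay 2 places apart and had nearly the same levels. The first had 5.69, 5.76, and 1.84 FPKM in the Vandana libraries labelled 0 and 1 HAT and at 6 HAT, and the second had 5.96, 5.57, and 1.93 FPKM. Of the 1431 pairs that the members form, 3 stayed within 1.2-fold of each other in all 3 Vandana libraries, and 2 of these lay on the same chromosome: this pair and that of Os06g0176000 and Os06g0177100. Reads shared between copies would make such levels uncertain, and this was not tested either.

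Some members had identifiers that do not end in 00. Such numbers lie between those of the first annotation and were mostly given to loci added later. They made up 16 of the 54 members (29.6%), 5.21% of the other genes with at least 5 FPKM in both Vandana libraries, and 21.1% of all genes in the table. The share among all genes silent in WT and erf71 is not given here, so these numbers do not single out the members. Of these 16 members, 12 were listed at 0 in all libraries of WT and erf71. At 6 HAT, 5 of the 16 were at least 2-fold higher, 8 lower, and 3 within 2-fold, compared with 7, 23, and 8 of the 38 members whose identifiers end in 00. The share with a neighbour at 0 was 50% in the former and 60.5% in the latter. It was 13.9% and 16.1% among the other genes, which were not chosen for silence in WT and erf71.

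The limits of the rule cut through a gradual range of levels. On the Vandana side, Os02g0801300 was the lowest member, with 5.41 FPKM in its lower library, followed by Os02g0644400 with 5.41 FPKM and Os10g0115200 with 5.57 FPKM. Just outside were Os07g0523700 with 4.93 FPKM, Os06g0514700 with 4.85 FPKM, and Os05g0550650 with 4.52 FPKM. On the Nipponbare side, the highest values inside were the 0.0994 FPKM of Os11g0128932, the 0.0988 FPKM of Os08g0240200, and 0.0883 FPKM of Os03g0247300. Just outside were Os01g0932550 with 0.101 FPKM, Os03g0680200 with 0.109 FPKM, and Os11g0219400 with 0.117 FPKM.

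A pair of genes lay on opposite sides of a limit although they are neighbours with like levels. Os03g0680200 had 6.13, 8.74, and 1.29 FPKM in the Vandana libraries labelled 0 and 1 HAT and at 6 HAT, and the member Os03g0680300 beside it had 6.27, 10.03, and 1.92 FPKM. The member Os08g0240200 had 9.16, 9.29, and 4.62 FPKM, and its neighbour Os08g0240000 had 9.30, 10.96, and 4.61 FPKM. In WT, however, Os08g0240000 reached 2.38, 3.41, and 0.151 FPKM over the 3 time points, where Os08g0240200 stayed below 0.1 FPKM.

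The opposite pattern was more frequent. At least 5 FPKM in WT at 0 and 1 HAT was found for 13566 genes, and 322 of them (2.37%) had less than 0.1 FPKM in all 3 Vandana libraries. This share is larger than the 0.405% of the members, although the rules differ, since 6 libraries had to be low for a member and only 3 here. With only the 3 WT libraries required to be low, the rule for members found 59 genes in place of 54. Of the 322 genes, 34 (10.6%) stood directly beside another of them, compared with 18.5% of the members. Without the chromosome 6 stretch, which was singled out after its values were seen, it was 6 of 49 members. Because Vandana reads were mapped to the Nipponbare genome, a gene that is missing or altered in Vandana and a gene with little RNA there cannot be told apart.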

How the data were processed

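The deposited FPKM values were estimated by the authors with Cufflinks after adapter removal and Tophat alignment of the mRNA reads against IRGSP1.0. The paper states this for WT and erf71, and the submitters' processing notes list the same tools for Vandana (CASAVA 1.8.2, TopHat2, Cufflinks, Bowtie). The 9 FPKM columns were matched to samples by plant and time in the sample titles. Samples titled riboZ RNA-Seq exist for the same plants and times, so the titles alone do not settle the library type. The mRNA libraries were taken because the paper computed gene levels with Cufflinks from mRNA reads. The paper does not describe Vandana, so this match is an inference. The rule was applied to FPKM as deposited. Changes were computed as log2 ratios after adding 0.1 FPKM, and a change of at least 2-fold was counted. With 1 library per condition, no test was run. Genes were ordered by identifier within a chromosome. Computation was tested on simulated data. Members, lists, and limits were chosen with earlier results of these data known. The genes named were the 12 most abundant members, the 5 members at either end of the ranking by change, adjacent pairs, the 3 genes on each side of each limit, and, chosen after their values were seen, genes of the chromosome 6 stretch and of other silent runs, neighbours of members, every member listed at 0 at 6 HAT or at least 2-fold apart between the early Vandana libraries, and pairs with like levels. A planned grouping by protein description was not possible, since the reference table from RefSeq carries no description or matching identifier. The lincRNA and miRNA tables were not used. Python 3.11.15 was used with pandas 2.3.3, numpy 2.4.6, and matplotlib 3.10.9.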

Additional observations from a re-analysis of the deposited data

How the results depend on the processing

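The number of members, 54 as reported, was 136 with a minimum of 1 FPKM in Vandana, 24 with 10 FPKM, and 102 with a limit of 1 FPKM in WT and erf71. It lay between 44 and 81 under the other alternatives, which included each early Vandana library alone (65 and 70 genes). The median log2 change to 6 HAT, -1.37, was negative under every alternative run. It was -1.14 with 1 FPKM added, -0.38 with median ratio scaling, -0.57 with upper quartile scaling, -1.25 from the library labelled 1 HAT alone, -1.20 for members listed at 0 in all 6 libraries, -0.80 for members with at least 10 FPKM, and -1.58 without the chromosome 6 stretch (this last setting was added once the data had been seen). With a 4-fold threshold, 2 members were higher, and of the members with at least 10 FPKM, 12 were lower and 6 higher. The number of members beside another member, 10, was 16 with a limit of 0.5 FPKM in WT and erf71 and 6 without the stretch, which was likewise added later. No paired analysis was possible because the results come from no test: the difference between plants chose the members, and the change to 6 HAT lies within 1 plant with 1 library at each time. An additive fit of plant and time over the 9 libraries was not run. The unknown depth limits how far a listed 0 can be read.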
